A study of Mus musculus with 35 samples.

Results

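Luminal Sca1-negative cells of the mouse mammary gland are the CD24-high, Sca1-negative fraction of a sort of dissociated 4th glands. They were represented by 6 of the 35 arrays of the series, chosen by their sample titles: 3 from parous and 3 from nulliparous mice. Each array held amplified RNA of 10000 sorted cells pooled from 5 mice, so a replicate is a pool. The parous mice were mated on day 42 of life and carried a normal pregnancy, with 21 days allotted to lactation and 40 days to involution, in which the gland regresses. Nulliparous mice were virgins of the same age. No strain, allele or drug is named in the labels for either group.

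Mammary luminal cells line the ducts and, in pregnancy, form the milk-secreting alveoli. The Sca1-negative luminal fraction is known as the compartment rich in alveolar progenitors and low in oestrogen receptor, whereas the Sca1-positive fraction holds most hormone-sensing cells. Prolactin acts through its receptor and the transcription factors STAT5A and STAT5B, which bind milk protein gene promoters at a short palindrome. After weaning most secretory cells die, and the cells left behind form a duct system that resembles the virgin gland.

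Casein genes carry some of the largest differences described below, although Csn1s1 and Csn2 did not pass the test for a parity difference. The bases around the start sites of these genes are shown because they hold a STAT-type palindrome, printed in capitals. Sequences are from RefSeq (mouse build GRCm38.p6), 5′ to 3′ on the strand of the gene. Csn1s1 and Csn2 are shown from 250 bases before the start site to 1 base before it, at chr5:87665958-87666207 on the plus strand and chr5:87699426-87699675 on the minus strand. Csn1s2a is shown over 30 bases after its start site, at chr5:87774460-87774489 on the plus strand.
Csn1s1: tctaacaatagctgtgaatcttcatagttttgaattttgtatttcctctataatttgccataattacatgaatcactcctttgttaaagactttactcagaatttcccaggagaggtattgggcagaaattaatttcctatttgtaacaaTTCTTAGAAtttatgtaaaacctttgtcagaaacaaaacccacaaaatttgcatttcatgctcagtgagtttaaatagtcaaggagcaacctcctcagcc
Csn2: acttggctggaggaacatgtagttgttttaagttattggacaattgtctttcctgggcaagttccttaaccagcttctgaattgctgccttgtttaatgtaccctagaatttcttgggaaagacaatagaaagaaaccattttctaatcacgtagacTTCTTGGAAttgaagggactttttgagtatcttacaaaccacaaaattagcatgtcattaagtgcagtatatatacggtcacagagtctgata
Csn1s2a: ttatagtgctTTCTTAGAAttacaatgact
The motif searched was TTC, any 3 bases, then GAA, which reads the same on both strands. Counted from the start site, its first base was at -100 in Csn1s1, at -93 in Csn2 and at 21 in Csn1s2a. The 250 bases before the start site of Csn1s2a held no match. Windows of 300 bases (250 before and 50 after the start) were at hand for 15 of the 23 measured milk protein genes, and 5 of them (33.3%) held the motif: Csn1s1, Csn1s2a, Csn2, Glycam1 and Pigr. The share was 8.99% among the 15613 genes tested that had a window, 9.9% among 101 genes higher in parous pools and 6% among 50 genes lower in parous pools. A match describes the letters and not a bound site.

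The 3 defining markers were high in the sorted cells. Kit, a stem cell factor receptor, was higher in Sca1-negative than in Sca1-positive luminal cells by 3.13 log2 units (SE 0.19), averaged over history. Elf5, a transcription factor of the alveolar lineage, was higher by 3.09 (SE 0.20). Aldh1a3, a retinaldehyde dehydrogenase of luminal progenitors, was higher by 2.51 (SE 0.17), and all 3 passed limma's test at an adjusted p of at most 3.1e-12. Of 20 luminal progenitor genes, 16 were higher in Sca1-negative cells, against 7.11% of all genes. Of 17 measured hormone-sensing genes, 12 were lower, against 9% of all genes; the oestrogen receptor gene Esr1 differed by -1.25 (SE 0.14).

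One of the 6 arrays stood apart. Expression of nulliparous pool 1 had an SD over genes of 1.78 log2 units, against 1.79 to 1.90 in the other 34 arrays. It correlated across genes with nulliparous pools 2 and 3 at Pearson's r of 0.983 to 0.986, whereas pools 2 and 3 correlated at 0.990 and parous pools with each other at 0.988 to 0.990. Parous and nulliparous pools correlated at 0.981 to 0.983. Whether pools of the same number in different subpopulations came from the same mice is not stated.

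Parity changed 200 of 19937 genes in luminal Sca1-negative cells (1%), 132 higher (0.662%) and 68 lower (0.341%) in parous pools, at an adjusted p under 0.05 in limma. The change reached 1 log2 unit, a doubling or halving, in 80 genes and 2 log2 units in 9. The 3 parous values lay wholly above or wholly below the 3 nulliparous values in 194 of the 200. Over all genes 17.7% did not overlap, 7.31% higher and 10.4% lower in parous pools, and the median difference was -0.04 log2. In the 6 fits that each left out 1 of the pools, 81 to 250 genes passed, with 81 without nulliparous pool 2, 113 without parous pool 2, 128 without parous pool 1 and 250 without nulliparous pool 1. The balance moved with them, to 56 higher and 25 lower without nulliparous pool 2 and 142 higher and 108 lower without nulliparous pool 1, or 184 higher and 170 lower where that pool was left out of every subpopulation. Quantile normalization gave 97 higher and 77 lower. The same 64 genes, 46 higher and 18 lower, passed in all 6.

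**Figure D1:**
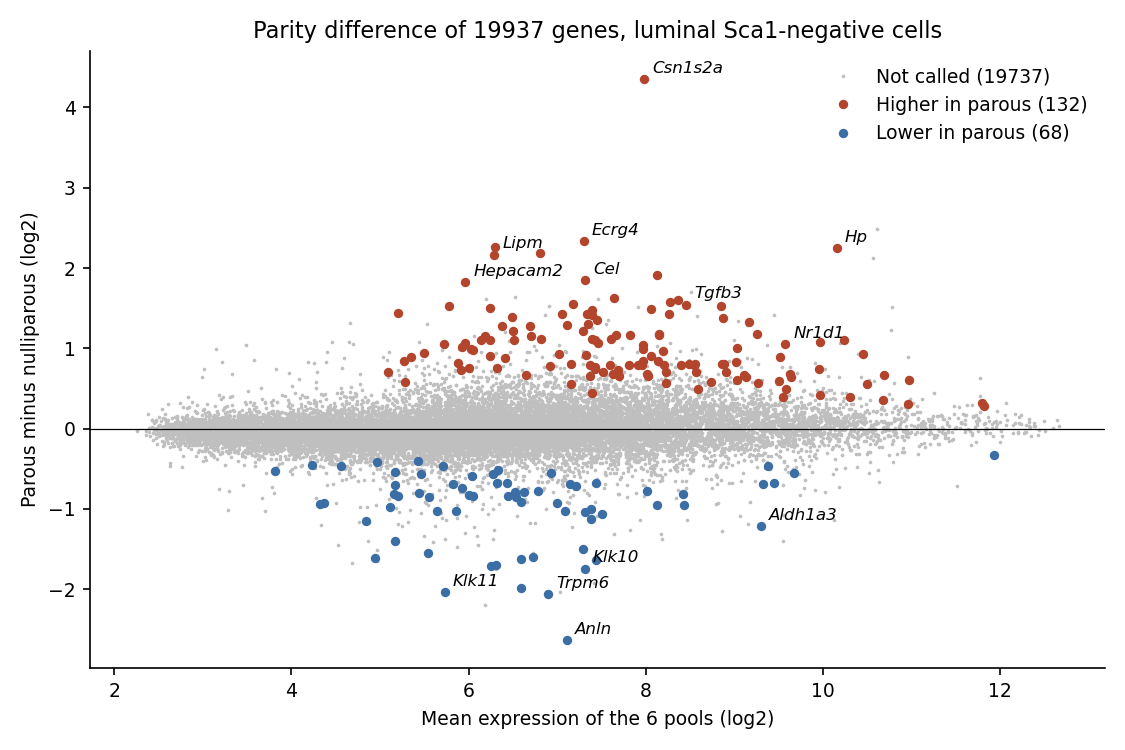
Difference between parous and nulliparous pools (log2, vertical axis) against mean expression of the 6 pools (log2, horizontal axis), 1 point per gene. Red points are the 132 genes higher and blue points the 68 genes lower in parous pools, and Csn1s2a stands above the rest at 4.36.

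A group of milk protein genes rose in parous cells, which were collected after the time allotted to involution. Of 23 measured genes of the list, 5 were called higher (0.662% of all genes) and none lower, 13 lay above the nulliparous range without overlap (7.31% of all genes), and the median difference was 0.58 log2 against -0.04 over all genes. Csn1s2a, the alpha-S2-like casein, read 10.30, 10.29 and 9.89 log2 in parous pools and 5.51, 6.08 and 5.83 in nulliparous pools. The groups were far apart, with a difference of 4.36 log2 (SE 0.40, adjusted p = 1.1e-07, limma). No detection call was used here, so whether low probe sets such as this one in nulliparous pools lie above background was not tested, and differences of that kind are given on the log2 scale alone. Cel, a bile salt-activated lipase that is secreted into milk, read 8.30, 8.55 and 7.87 in parous pools and 6.24, 6.69 and 6.24 in nulliparous pools (1.85, SE 0.24). Every parous pool lay above every nulliparous pool for both genes.

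Coat proteins of the milk fat globule were among the called genes. Btn1a1, butyrophilin, read 9.36, 8.86 and 8.96 in parous pools and 7.92, 7.15 and 7.39 in nulliparous pools (1.57, SE 0.19, adjusted p = 1.5e-05). Xdh, xanthine dehydrogenase, its partner on the globule, read 8.91, 8.75 and 8.54 in parous pools and 7.65, 7.35 and 7.70 in nulliparous pools (1.17, SE 0.22, adjusted p = 0.0032). Pigr carries antibodies across the epithelium into milk. It read 6.42, 6.31 and 6.03 in parous pools and 5.21, 5.22 and 5.15 in nulliparous pools (1.06, SE 0.13, adjusted p = 1.5e-05). All 5 called milk genes passed in each of the 17 alternative settings. Xdh was 1.79 log2 units higher in nulliparous basal CD49f-low than in nulliparous Sca1-positive cells, and the other 4 differed there by -0.89 to 0.01.

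The abundant caseins had large differences that did not pass. Csn2, beta-casein, read 11.93, 11.86 and 11.76 in parous pools and 8.74, 10.47 and 8.90 in nulliparous pools. Its parous pools were close together and its nulliparous pools were not, and the difference of 2.48 (SE 0.68) had an adjusted p of 0.081. Csn1s1, alpha-S1-casein, read 11.74, 11.54 and 11.60 in parous pools and 8.83, 10.00 and 9.70 in nulliparous pools (2.12, SE 0.85, adjusted p = 0.31). Ltf, the iron-binding protein lactoferrin, read 11.38, 11.36 and 11.40 in parous pools and 10.47, 9.77 and 10.21 in nulliparous pools (1.23, SE 0.45, adjusted p = 0.23). None of the 3 overlapped between groups. The spread behind these errors is shared by all 12 groups of the series; estimated from the 6 pools alone, 9 milk genes were called higher, Csn2, Csn1s1, Ltf and Mfge8 joining the 5, and Wfdc18 was called lower.

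Other milk genes had smaller differences that did not pass. Csn3, kappa-casein, differed by 0.37 (SE 0.70), Trf, transferrin, by 0.63 (SE 0.42), and Plin2, the lipid droplet coat protein, by 0.65 (SE 0.19, adjusted p = 0.11). Wap, whey acidic protein, read 6.88, 7.14 and 6.33 in parous pools and 6.35, 6.21 and 6.04 in nulliparous pools, with overlap and an adjusted p of 0.054. Wfdc18, a small secreted protein with a whey acidic protein domain, ran the other way at 11.27, 11.27 and 10.94 in parous pools and 11.79, 11.85 and 11.98 in nulliparous pools (-0.72, SE 0.63). Lalba and Spp1 were not analysed here.

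**Figure D2:**
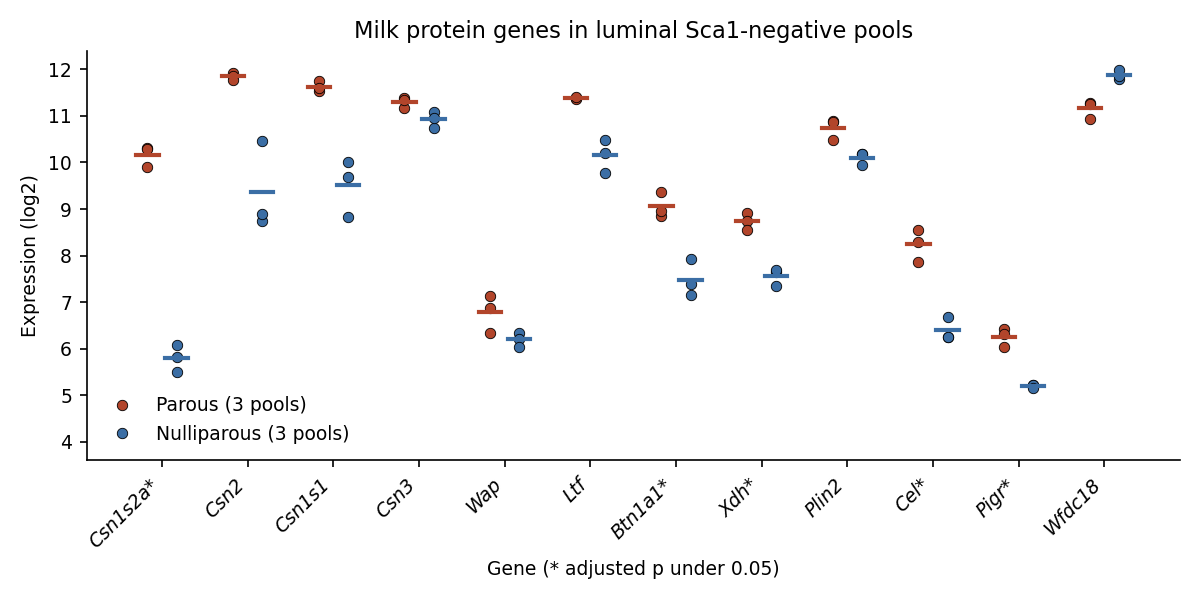
Expression (log2) of 12 milk protein genes in each luminal Sca1-negative pool, parous in red and nulliparous in blue, with bars at the group means. Csn1s2a is near 10 in parous pools and under 6.1 in nulliparous pools, Wap is low in both, and Wfdc18 is higher in nulliparous pools.

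Of 25 measured prolactin and STAT5 genes, 1 was called higher (0.662% of all genes) and none lower, with a median of 0.12. Prlr, the prolactin receptor gene, was not among the genes tested. Stat5a read 8.08, 8.24 and 8.16 in parous pools and 8.21, 8.14 and 7.99 in nulliparous pools, a difference of 0.05 with a 95% interval of -0.26 to 0.35. Stat5b differed by -0.01 (interval -0.39 to 0.37) and Cish, a feedback inhibitor and STAT5 target, by 0.08 (interval -0.29 to 0.46). Socs2, another such inhibitor, read 8.83, 8.53 and 8.63 in parous pools and 7.86, 8.15 and 7.86 in nulliparous pools, and its 0.71 (SE 0.25) had an adjusted p of 0.21. The gene called higher was Id2, an inhibitor of basic helix-loop-helix factors that alveolar development requires in mice. It read 8.16, 8.11 and 7.88 in parous pools and 6.61, 6.72 and 6.54 in nulliparous pools (1.42, SE 0.20, adjusted p = 0.00013), with no overlap. None of 33 milk lipid synthesis genes was called, and 1 was called lower without nulliparous pool 1. A difference above 0 was found for 28 of them, against 41.7% of all genes, with a median of 0.19.

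In the lysosome and involution list 4 of 25 genes rose (0.662% of all genes), none fell (0.341%), and the median was 0.21. The rises numbered 1 without nulliparous pool 2, and 2 without parous pool 1, parous pool 2 or nulliparous pool 3. Tgfb3, the transforming growth factor that milk stasis induces in mice, read 9.74, 9.14 and 8.81 in parous pools and 8.09, 7.56 and 7.40 in nulliparous pools (1.54, SE 0.22, adjusted p = 0.00011). Igfbp5 sequesters insulin-like growth factors and is a classical involution gene. It read 11.04, 10.67 and 10.66 in parous pools and 10.13, 9.28 and 9.63 in nulliparous pools (1.11, SE 0.21). Both genes separated the groups, but the call of Igfbp5 was lost without nulliparous pool 2 (adjusted p = 0.073). The lysosomal proteases Ctsd (0.59, SE 0.14) and Ctsl (0.35, SE 0.09) were called as well, and each kept its call in 1 of the 6 fits that left out a pool, with adjusted p up to 0.14 and 0.19.

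Growth factor pathway genes were also among the rises. Irs1, the adaptor that carries insulin and IGF1 receptor signals, read 8.19, 7.67 and 7.99 in parous pools and 6.73, 5.87 and 6.60 in nulliparous pools (1.55, SE 0.29, adjusted p = 0.0033; 0.058 without nulliparous pool 2). Of 32 EGF family and IGF axis genes 3 were called higher (0.662% of all genes), Irs1, Igfbp5 and Igfbp7, and none lower, with a median of -0.03, close to that of all genes. Igfbp7, another IGF-binding protein, kept its call in 2 of the 6 fits without a pool (adjusted p up to 0.24). The list had 0 calls without nulliparous pool 2, and 2 without parous pool 1, parous pool 2 or nulliparous pool 3. Igfbp5 and Igfbp7 were 3.95 and 2.77 log2 units higher in nulliparous basal CD49f-low than in nulliparous Sca1-positive cells, and Irs1 0.70. Of 33 TGF-beta and BMP genes 3 were called higher, Tgfb3, Id2 and the ligand Bmp3, with a median of 0.06. Bmp3 read 6.71, 6.83 and 6.74 in parous pools and 5.88, 5.47 and 5.46 in nulliparous pools (1.15, SE 0.16), again without overlap.

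Lipases and an acute phase protein were among the larger rises. Lipm, a lipase of differentiating keratinocytes, read 8.02, 6.87 and 7.23 in parous pools and 5.53, 5.02 and 5.07 in nulliparous pools (2.17, SE 0.21, adjusted p = 1.9e-07). Hp, haptoglobin, which binds free haemoglobin, read 11.37, 11.09 and 11.38 in parous pools and 9.38, 8.96 and 8.76 in nulliparous pools (2.24, SE 0.39, adjusted p = 0.0016). The 2 groups did not overlap in either gene. In the acute phase and innate defence list Hp was the 1 gene of 29 called higher (0.662% of all genes). Il1rn, the interleukin-1 receptor antagonist, was the 1 called lower (0.341% of all genes), at -0.92 (SE 0.23). Il1rn was called in 1 of the 6 fits without a pool (adjusted p up to 0.28). The list median was 0.10, and without nulliparous pool 1 there were 2 calls in each direction. No gene of 25 in the interferon and antigen presentation list was called (median -0.04).

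The further genes of this paragraph are cell surface, matrix or secreted proteins from the 20 largest rises. Ecrg4, a secreted precursor protein, was higher by 2.33 (SE 0.30) and Anxa8, a calcium-dependent membrane-binding annexin, by 1.92 (SE 0.29). Emb, embigin, a partner of monocarboxylate transporters, read 7.60, 8.11 and 7.98 in parous pools and 5.41, 6.11 and 5.61 in nulliparous pools (2.19, SE 0.32, adjusted p = 0.0002). Hepacam2, an immunoglobulin-like adhesion protein, read 6.54, 7.03 and 7.06 in parous pools and a tight 5.08, 5.03 and 5.04 in nulliparous pools (1.83, SE 0.23). Tnc, the matrix protein tenascin C, read 8.21, 8.45 and 7.75 in parous pools and 6.71, 6.70 and 6.57 in nulliparous pools (1.48, SE 0.25). Cldn8, a tight junction claudin, was the 1 gene called among 21 of its list (1% of all genes). It read 8.18, 8.40 and 8.80 in parous pools and 6.88, 6.56 and 7.06 in nulliparous pools (1.63, SE 0.28). None of these 6 genes overlapped between groups, and all kept their calls in every fit that left out a pool. Ecrg4, Emb and Tnc were 4.25, 2.74 and 1.60 log2 units higher in nulliparous basal CD49f-low than in nulliparous Sca1-positive cells.

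A pair of nuclear receptors of the circadian clock rose. Nr1d1, the haem-sensing repressor REV-ERB alpha, read 9.85, 10.39 and 10.05 in parous pools and 9.36, 8.88 and 8.91 in nulliparous pools (1.05, SE 0.18, adjusted p = 0.0017). Rora, the activator that competes with it for the same sites, read 8.67, 8.58 and 8.51 in parous pools and 8.11, 7.73 and 7.79 in nulliparous pools (0.71, SE 0.13, adjusted p = 0.0036; 0.052 without nulliparous pool 2). Among 19 measured clock genes these 2 were called (0.662% of all genes), 17 had a difference above 0 (41.7% of all genes), and the median was 0.37. The median was 0.24 without nulliparous pool 3, and from the 6 pools alone 1 clock gene was called, or 0 with a replicate block. The core activator Arntl differed by 0.05 (interval -0.33 to 0.42) and Per2, a period repressor, by 0.19 (interval -0.17 to 0.55), whereas Per1 had 0.62 (adjusted p = 0.076) and Clock 0.42 (adjusted p = 0.096). Time of collection is not stated in the labels, so its part was not tested. Immediate early genes had a similar median of 0.36 over 28 genes, with 4 called higher (0.662% of all genes): Nr4a2, Csrnp1, Dusp1 and Myc. Those 4 kept their calls in 2 to 4 of the 6 fits without a pool, all losing them without nulliparous pool 2, with adjusted p up to 0.17. From the 6 pools alone the list had 0 calls, and without nulliparous pool 1 it had 2. Nr4a2 and Myc were 3.69 and 1.24 log2 units higher in nulliparous basal CD49f-low than in nulliparous Sca1-positive cells. Heat shock chaperones had a median of 0.25, with 13 of 16 above 0 (41.7% of all genes) and 1 called higher (0.662% of all genes). That list had 0 calls without parous pool 1, parous pool 3 or nulliparous pool 2, and 2 without nulliparous pool 1. From the 6 pools alone it had 0. Handling of the cells was not tested.

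Luminal progenitor genes moved both ways. Aldh1a3 was lower in parous cells at 8.45, 8.90 and 8.73, against 9.53, 9.95 and 10.25 in nulliparous cells (-1.22, SE 0.23, adjusted p = 0.0043), a 2.33-fold difference without overlap that passed in all 17 settings. Rspo1, a secreted enhancer of Wnt signalling, read 7.26, 6.83 and 6.82 in parous pools and 7.33, 8.46 and 8.30 in nulliparous pools (-1.06, SE 0.20, adjusted p = 0.0036; 0.063 without nulliparous pool 2). Slc34a2, a phosphate transporter of secretory epithelium, was higher by 0.71 (SE 0.13). Kit read 9.13, 9.10 and 8.70 in parous pools and 9.07, 8.87 and 9.49 in nulliparous pools, a difference of -0.16 with an interval of -0.71 to 0.39. Elf5 differed by 0.41 (interval -0.17 to 0.98). Over the 20 progenitor genes 1 was called higher (0.662% of all genes) and 2 lower (0.341% of all genes), with a median of 0.09. With dim genes left out, 18 of the list remained, of which 0 were called higher and 2 lower.

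Wnt pathway genes were called in both directions. Fzd7, a Wnt receptor, read 8.64, 8.28 and 8.25 in parous pools and 7.45, 7.47 and 7.72 in nulliparous pools (0.84, SE 0.12, adjusted p = 0.00018). Of 36 Wnt genes 2 were called higher (Fzd7 and Lgr4, an R-spondin receptor) and 1 lower (Rspo1), where 1% of all genes were called, with a median of -0.02. Lgr4 kept its call in 1 of the 6 fits without a pool (adjusted p up to 0.18), and Fzd7 and Lgr4 were 2.77 and 3.43 log2 units higher in nulliparous basal CD49f-low than in nulliparous Sca1-positive cells. No call was made among 24 Notch genes or 17 hormone-sensing genes, whose medians were both -0.01. In fits without a pool, 1 Notch gene was called higher without parous pool 3, and 1 hormone-sensing gene without nulliparous pool 1. Array weights gave 2 Notch genes and 1 hormone-sensing gene called higher. Wnt4, the ligand that progesterone induces, differed by -0.17 (interval -0.43 to 0.09) and Tnfsf11, the paracrine factor RANKL, by -0.36 (interval -0.69 to -0.03, adjusted p = 0.39).

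**Figure D3:**
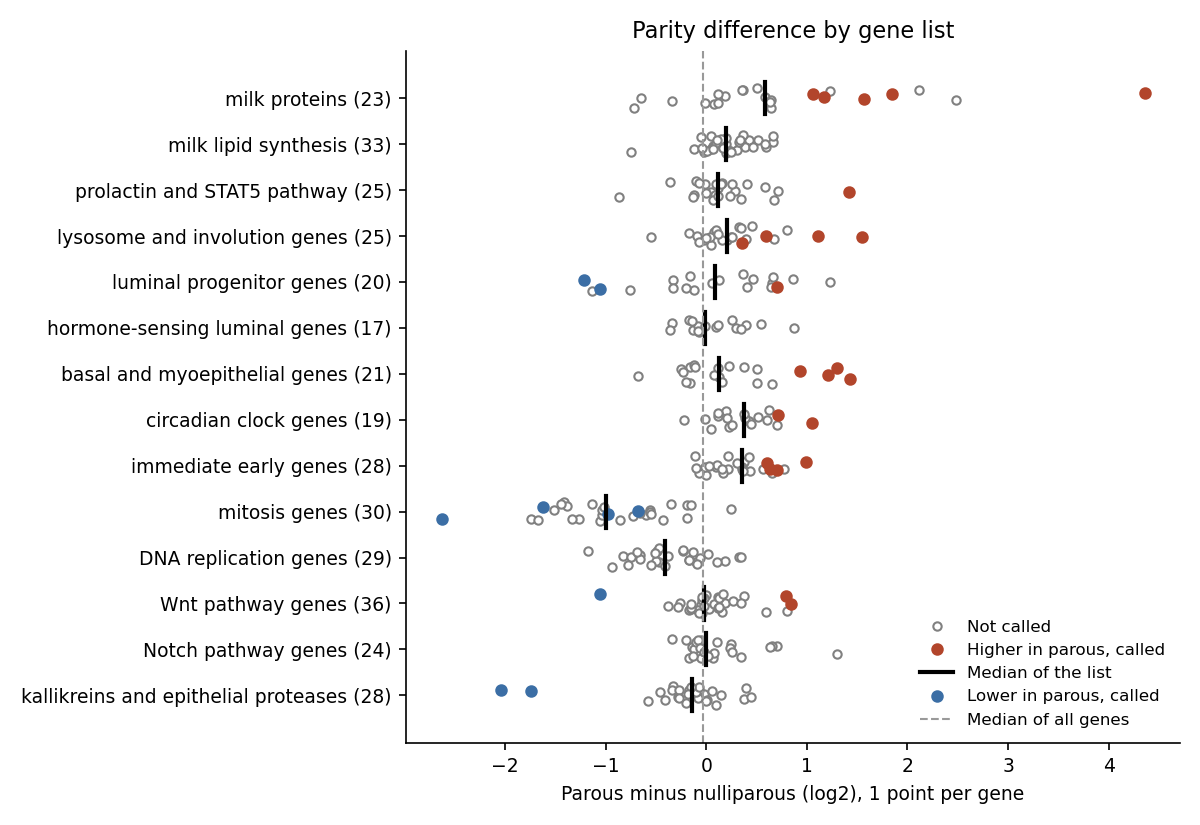
Difference between parous and nulliparous pools (log2) of every measured gene in 14 lists, with the number of genes in parentheses. Filled points passed the test, open points did not, black bars are list medians and the dashed line is the median of all genes. Milk protein genes spread to the right and mitosis genes to the left, with a median of -0.998.

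Some mitosis genes fell in parous cells. Of 30 measured, 4 were called lower (0.341% of all genes) and none higher, 23 lay below the nulliparous range without overlap (10.4% of all genes), and the median was -0.998 log2. Anln, anillin, a scaffold of the cleavage furrow, read 5.57, 5.89 and 5.92 in parous pools and 7.59, 8.69 and 8.98 in nulliparous pools (-2.63, SE 0.54, adjusted p = 0.0079). Birc5, survivin, of the chromosomal passenger complex, read 6.05, 5.63 and 5.66 in parous pools and 6.81, 7.31 and 8.09 in nulliparous pools (-1.62, SE 0.28, adjusted p = 0.0017). Both were separate between groups, with nulliparous pool 1 the nearest to the parous pools. Melk, a mitotic kinase (-0.98), and Cenpa, the centromeric histone (-0.68), were called with adjusted p of 0.036 each, and kept their calls in 1 and 2 of the 6 fits without a pool (adjusted p up to 0.22 and 0.16). Top2a, the DNA decatenating enzyme, had -1.74 (SE 0.53, adjusted p = 0.13).

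The mean level of the 30 mitosis genes was 5.28, 5.11 and 5.03 log2 in parous pools and 5.62, 6.04 and 6.61 in nulliparous pools. Nulliparous pools thus differed among themselves by more than parous pools did. Without nulliparous pool 1, 10 mitosis genes were called lower, 1 was called without nulliparous pool 2 or pool 3, and 2 were called without parous pool 2 or pool 3. The median was -0.64 without nulliparous pool 3. Anln lost its call without nulliparous pool 2 or 3 (adjusted p up to 0.064), and Birc5 kept its call in all 6 such fits. DNA replication genes had a median of -0.41 (-0.26 without nulliparous pool 3) and none of 29 called, and 3 were called lower without nulliparous pool 1. Rb1, the retinoblastoma protein that restrains entry into S phase, was higher at 10.72, 10.32 and 10.50 in parous pools and 9.74, 9.05 and 9.49 in nulliparous pools (1.08, SE 0.20, adjusted p = 0.003; 0.055 without nulliparous pool 2), and was picked after its values were seen. Fewer cycling cells and less RNA per cycling cell cannot be told apart in pools.

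**Figure D4:**
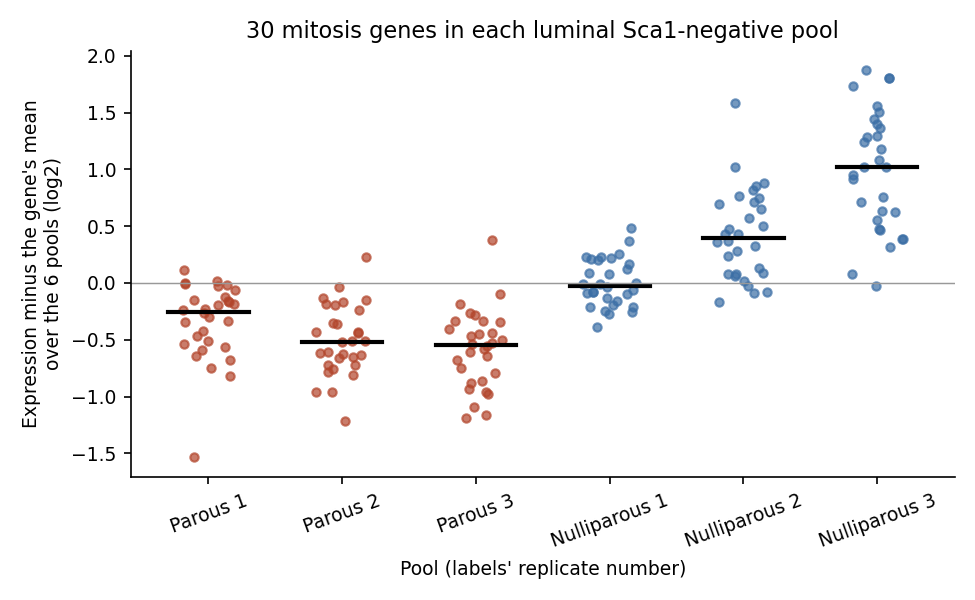
Expression of 30 mitosis genes in each luminal Sca1-negative pool, as log2 expression minus the gene's mean over the 6 pools, with bars at the medians. Medians are -0.25, -0.52 and -0.54 in the parous pools and -0.02, 0.40 and 1.02 in the nulliparous pools.

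Klk11, Klk10, Trpm6, Cers3 and Alox12e fell in parous cells. Klk11, a secreted trypsin-like protease, read 4.62, 4.74 and 4.77 in parous pools and 6.96, 6.39 and 6.89 in nulliparous pools (-2.04, SE 0.18, adjusted p = 7.6e-08). Klk10, another kallikrein, read 6.31, 6.78 and 6.22 in parous pools and 7.57, 8.49 and 8.49 in nulliparous pools (-1.74, SE 0.24, adjusted p = 8.1e-05). These were the 2 called of 28 kallikrein and epithelial protease genes, where 0.341% of all genes were called lower. The list median was -0.15. Trpm6, a magnesium channel with a kinase domain, read 5.64, 6.27 and 5.67 in parous pools and 7.73, 7.96 and 8.10 in nulliparous pools (-2.07, SE 0.21, adjusted p = 5.6e-07). Cers3, which makes the very long ceramides of the epidermis, fell by 1.54 (SE 0.25), and Alox12e, an epidermal lipoxygenase, was also lower (-1.70, SE 0.27).

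Further falls were separate between groups. Itih2, a heavy chain that links to hyaluronan, read 5.73, 5.70 and 5.37 in parous pools and 7.67, 7.53 and 7.56 in nulliparous pools (-1.98, SE 0.28, adjusted p = 0.00011). Cavin2, a coat protein of caveolae, read 6.13, 5.65 and 5.99 in parous pools and 7.21, 7.65 and 7.72 in nulliparous pools (-1.60, SE 0.22, adjusted p = 0.00011). S100a4, a calcium-binding protein of motile cells, fell by 1.64 (SE 0.27), and Sh3rf1, a scaffold of JNK signalling, fell by 1.13 (SE 0.18). Each of these 4 kept its call in all 17 settings. In the ion channel and transporter list of 33 genes, 3 were called higher (0.662% of all genes). They were Scnn1a, a sodium channel subunit, Slc34a2 and Atp2c1, a calcium pump. Trpm6 was the 1 called lower (0.341% of all genes), and the list median was -0.06. After quantile normalization 1 gene of the list was called higher, and with dim genes left out 2 of the 24 that remained. Scnn1a and Atp2c1 kept their calls in 1 and 0 of the 6 fits without a pool (adjusted p up to 0.10 and 0.15).

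Some basal cell genes were higher in parous luminal pools. Krt5, the basal keratin, read 8.04, 8.03 and 7.92 in parous pools and 6.10, 7.05 and 6.92 in nulliparous pools (1.30, SE 0.18, adjusted p = 8.6e-05). Myl9, a smooth muscle myosin light chain, read 8.27, 7.62 and 7.43 in parous pools and 6.71, 5.89 and 6.41 in nulliparous pools (1.43, SE 0.21, adjusted p = 0.00023). The contractile genes Cnn1 (1.21, SE 0.20) and Myh11 (0.93, SE 0.19) were also called, which made 4 of 21 (0.662% of all genes) with none lower and a median of 0.13. The median was 0.055 without nulliparous pool 3 and 0.24 without parous pool 3. Myh11 lost its call without parous pool 1 or nulliparous pool 3 (adjusted p up to 0.080). Other defining basal genes did not pass: Acta2 differed by 0.50 (adjusted p = 0.20), Krt14 by 0.50 (adjusted p = 0.37), Tagln by -0.16 and Mylk by 0.11. The mean of the 21 genes was 7.21 to 7.37 log2 in parous pools and 6.91 to 7.08 in nulliparous pools, against 9.87 in parous and 10.00 in nulliparous basal CD49f-low cells. Of the 132 genes higher in parous pools, 44 (33.3%) were at least 1 log2 unit higher in nulliparous basal CD49f-low than in nulliparous Sca1-positive luminal cells, among them Scn7a, a sodium channel (6.38), and the genes given with such a difference above. That share was 13.2% of the 68 genes lower and 4.5% of all genes. The opposite difference, at least 1 log2 unit lower in those basal cells, was found for 10 of the 132 genes (7.58%). Among them were Cldn8 (-3.64), Hp (-3.17), Scnn1a (-3.10) and Hepacam2 (-2.29). It was found for 8.82% of the 68 genes lower and 3.09% of all genes. The part of basal cells in the parous rises was not tested. No gene was called in the fibroblast, endothelial, macrophage and dendritic, lymphocyte, adipocyte, muscle, erythroid and Schwann lists of 2 to 20 genes.

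Differences from the other luminal fraction and from basal cells were tested as differences of parity effects. Against luminal Sca1-positive cells 19 genes differed (0.0953%), 10 with a more positive parity effect in Sca1-negative cells and 9 with a more negative one (8 and 12 after quantile normalization), and 14 of the 19 were also among the 200. Against basal CD49f-low cells 60 genes differed (0.301%), 37 more positive and 23 more negative (44 and 17 after quantile normalization), of which 23 in all were among the 200. At an unadjusted p under 0.05, 1175 and 1602 genes differed. Against Sca1-positive cells 8 genes differed without parous pool 1, 2 more positive and 6 more negative. Without nulliparous pool 2 the number was 9, with 4 more positive and 5 more negative, and 30 differed without nulliparous pool 1. Which of the genes named below kept their difference in these fits was not examined. Against basal CD49f-low cells 24 to 38 genes differed without any single pool other than nulliparous pool 1, and 61 without that pool.

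Several genes named above changed in Sca1-negative cells and differed from both other fractions. The parity effect of Lipm was 2.17 here, 0.24 in Sca1-positive and 0.44 in basal CD49f-low cells, and both differences passed (1.93 with adjusted p = 0.0022, and 1.73 with adjusted p = 0.0045). Tgfb3 had 1.54 here, -0.07 in Sca1-positive and -0.30 in basal CD49f-low cells (adjusted p of the differences 0.023 and 0.0043). Klk11 had -2.04 here, -0.41 in Sca1-positive and -0.33 in basal CD49f-low cells (0.0023 and 0.00081). Trpm6 had -2.07 here, 0.20 in Sca1-positive and -0.51 in basal CD49f-low cells (0.00021 and 0.013). Id2, Krt5, Cavin2, Tmem47 and Dynap also passed against both.

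Other changes were shared in direction. Csn1s2a was higher with parity by 4.36 here, 3.42 in Sca1-positive and 2.89 in basal CD49f-low cells, and neither difference passed (adjusted p of 0.90 and 0.46). Itih2 fell by 2.32 in Sca1-positive cells and Hepacam2 was higher by 2.38 there, with no difference from Sca1-negative cells that passed (0.98 and 0.90). Emb split the fractions. It was higher by 2.19 here and by 1.91 in Sca1-positive cells (adjusted p = 0.0011) but fell by 1.56 in basal CD49f-low cells (adjusted p = 0.0098), where it read 8.64, 8.57 and 8.38 in parous pools and 9.85, 10.18 and 10.22 in nulliparous pools. Its effect differed from that in basal cells by 3.75 log2 units (adjusted p = 0.00012). Some list means also moved in the same direction in basal CD49f-low cells. In parous and nulliparous basal pools they were 8.07 and 7.87 log2 for clock genes and 9.54 and 9.30 for immediate early genes. Heat shock chaperones had 10.54 and 10.37, and mitosis genes 5.05 and 5.57. These list means were not tested.

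**Figure D5:**
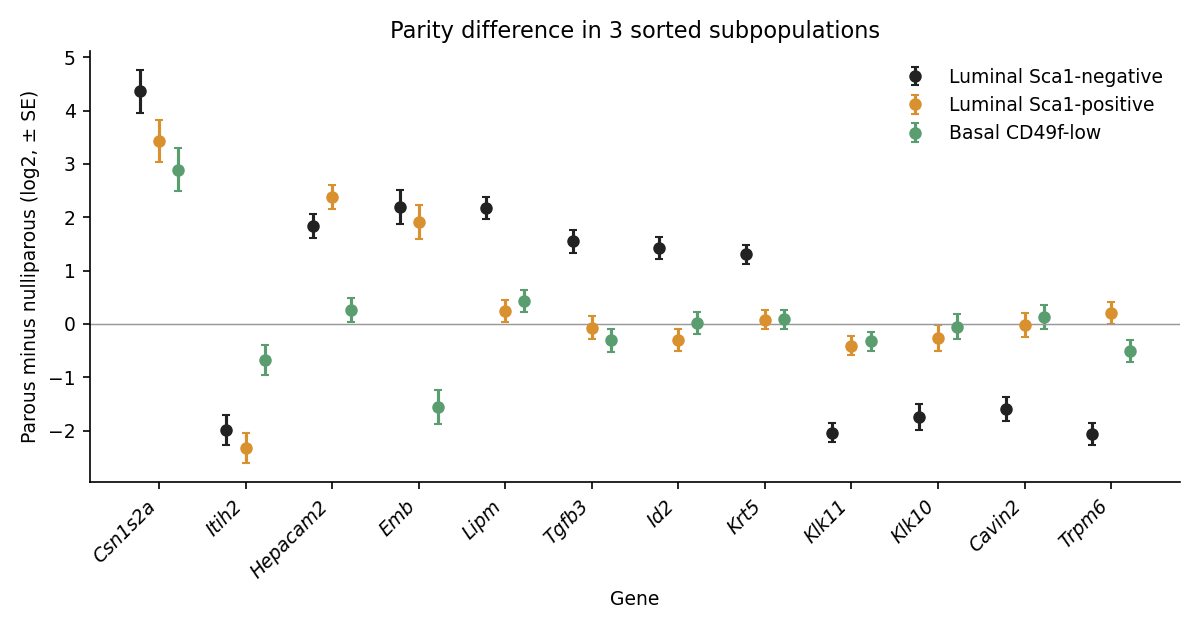
Parity effect (parous minus nulliparous, log2, with SE bars) of 12 genes in luminal Sca1-negative, luminal Sca1-positive and basal CD49f-low cells. Csn1s2a is high in all 3, Lipm, Tgfb3, Id2 and Krt5 are high and Klk11, Cavin2 and Trpm6 low in Sca1-negative cells, and Emb is below 0 in basal cells.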

How the data were processed

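RNA of sorted mouse mammary cells had been amplified, labelled and run on 1-colour Affymetrix arrays, 1 per sample, in 35 samples of 12 groups. Per the labels, the affy software was used by the authors; its version, normalization, summary method and build are not stated there. The deposited table holds log2 values of probe sets, from 1.74 to 13.28, with column medians of 5.81 to 5.92. A supplied annotation gave 1 symbol for 21640 of 34760 probe sets, several for 1321 and none for 11799; the last 2 kinds were left out. The probe set with the highest mean over all samples stood for each of 19937 genes.

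All 35 samples were fitted as 12 group means with limma 3.58.1 in R 4.3.3 (lmFit, eBayes with a trend), without covariates, with Benjamini-Hochberg adjustment across the 19937 genes and calls under 0.05. SE and 95% intervals are those of this fit. The number of arrays limits the precision. Groups came from the sample titles. The fit was tested on simulated data.

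Named genes are the 20 largest rises and falls without overlap, and up to 6 called and 3 uncalled members of each of 31 gene lists. To these come a panel of milk, clock, progenitor and pathway genes and the 8 largest differences of parity effects per direction. Rb1, Tagln and Mylk were added after their values were seen, as were Fth1, Hmox1, Vdr and Spink5 of the closing observations. Members and lists were chosen with earlier results of these data known. Alternatives were eBayes without a trend, array weights, quantile normalization, a filter on dim genes, the mean of probe sets, blocks by replicate number or pool, the 6 pools alone, and leaving out pools. Promoters were read from RefSeq windows. Deviations of parous and nulliparous pools of the same number correlated at 0.01, 0.10 and 0.02. The labels do not state whether such pools are pairs, and the numbers were not taken as pairs.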

Additional observations from a re-analysis of the deposited data

Results flagged for a closer look

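Some genes called for parity in luminal Sca1-negative cells also had a parity effect that differed from that of another fraction in limma's test of the difference itself. Against luminal Sca1-positive cells the effect was more positive in Sca1-negative cells, in log2 units, for Lipm (1.93), Id2 (1.72), Tgfb3 (1.62), Krt5 (1.22), Antxr1 (1.17), Slc34a2 (0.95), Nudt4 (0.94) and Pigr (0.89). It was more negative for Sh3rf1 (-1.25), Tmem47 (-1.29), Dynap (-1.36), Cavin2 (-1.58), Klk11 (-1.63) and Trpm6 (-2.27). In the fit without parous pool 1, 2 more positive and 6 more negative differences from Sca1-positive cells passed among all genes. Against basal CD49f-low cells the effect was more positive for Emb (3.75), Igfbp7 (1.89), Tnc (1.86), Tgfb3 (1.85), Lipm (1.73), Id2 (1.40) and Krt5 (1.21). It was more negative for Tmem47 (-1.03), Dynap (-1.47), Trpm6 (-1.56), Klk10 (-1.69), Klk11 (-1.71) and Cavin2 (-1.73). Antxr1 is a collagen-binding anthrax toxin receptor and Nudt4 an inositol phosphate hydrolase. Antxr1 was 4.82 log2 units higher in nulliparous basal CD49f-low than in nulliparous Sca1-positive cells. Its call for parity was lost when only the 6 pools were fitted. The basal keratin gene Krt5 appears against both fractions, and its level in Sca1-negative pools is given with the basal genes. Groups of 3 were too small for a test of single outlying pools.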

How the results depend on the processing

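Of the 77 named genes that were called, 30 were called in all 17 alternative settings and 40 in all 6 that left out a single Sca1-negative pool; no gene called for parity was called in the opposite direction in any of them. Parity calls numbered 200. Array weights gave 614 (338 higher and 276 lower), a replicate block over all samples gave 322, the same block with only the 6 pools gave 125, and leaving out nulliparous pool 1 in every subpopulation gave 354. Quantile normalization gave 174 with 55.7% higher, against 66% of the 200; leaving out nulliparous pool 1 of the Sca1-negative cells gave 250. Single pools left out gave 81 to 250. For the difference from Sca1-positive cells (19 genes), array weights gave 63, the replicate block 32, and leaving out nulliparous pool 1 or pool 3 everywhere gave 35 and 12; single pools gave 8 to 30. For the difference from basal CD49f-low cells (60 genes), array weights gave 205 and leaving out nulliparous pool 1 or 3 everywhere gave 95 and 30; single pools gave 24 to 61. The cause was not tested. Whether replicate numbers pair parous with nulliparous pools is not stated in the labels, so the block may compare pools that share only a number. With 3 pools a group, a gene that was not called may still differ by an amount within its interval.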

Other observations

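The genes of this paragraph were named after their values were seen. Fth1, the ferritin heavy chain that stores iron, read 11.93, 11.96 and 11.98 log2 in parous pools and 11.59, 11.66 and 11.77 in nulliparous pools (0.28, SE 0.05, adjusted p = 0.0036 in limma). Hmox1, the enzyme that opens haem, was higher by 0.93 (SE 0.22, adjusted p = 0.031), and kept its call in 2 of the 6 fits that left out a pool (adjusted p up to 0.23). Vdr, the vitamin D receptor, was higher by 0.84 (SE 0.20, adjusted p = 0.032), and kept its call in 1 of the 6 (adjusted p up to 0.17). Hmox1 and Vdr were 1.31 and 1.95 log2 units higher in nulliparous basal CD49f-low than in nulliparous Sca1-positive cells. Spink5, an inhibitor of epidermal kallikreins, read 4.85, 4.65 and 4.73 in parous pools and 5.79, 5.19 and 5.71 in nulliparous pools (-0.82, SE 0.14, adjusted p = 0.0017).

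Arrays that share a history and a replicate number deviated together across subpopulations to different degrees. The deviation of Sca1-negative nulliparous pool 1 from its group mean correlated across genes with those of pool 1 in the other subpopulations at a median of 0.27, and with those of other numbers at a median of -0.11. Deviations within a group sum to 0, so the value for other numbers follows from that for the same number and is not a separate contrast. The medians for pools of the same number were 0.092 and 0.26 for nulliparous pools 2 and 3, and 0.12, 0.034 and 0.12 for parous pools 1, 2 and 3. Genes are not independent replicates, and no p is given.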
